A study of Mus musculus with 12 samples.

Results

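Lipolysis is the stepwise hydrolysis of stored triglyceride into fatty acids and glycerol, and 8 genes of this process were followed in epididymal white adipose tissue (eWAT) of mice. They were *Pnpla2*, *Lipe*, *Mgll*, *Pnpla3*, *Abhd5*, *G0s2*, *Pde3b* and *Prkar2b*. They were picked by symbol as lipolysis enzymes and their regulators. All 8 were present among 22855 genes of the deposited table, and all 8 were among the 12760 genes that passed the filter on low values and were tested.

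In the fat cell, adipose triglyceride lipase (encoded by *Pnpla2*) opens the pathway, hormone-sensitive lipase (*Lipe*) takes the resulting diglyceride, and monoglyceride lipase (*Mgll*) releases the last fatty acid. The first enzyme is activated by the protein CGI-58 (*Abhd5*) and inhibited by the G0/G1 switch protein (*G0s2*). Catecholamines raise cyclic AMP, which activates protein kinase A, whereas insulin lowers cyclic AMP through phosphodiesterase 3B, so lipolysis runs during fasting and is held back after feeding.

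Messenger RNA of whole eWAT was sequenced from male C57BL/6J mice, with 3 mice in each of 4 groups and 12 libraries in all. The mice were 21 weeks old and had eaten their diet for 16 weeks. The groups were a normal diet (ND), a high-fat diet (HFD), the HFD with 1.5% by weight of chrysanthemum leaf ethanol extract (CLE), and the HFD with 0.003% by weight of luteolin (LU), a flavonoid of that plant. All mice were housed individually and fasted before tissue collection, and the sequenced mice were chosen by the study as representative of larger groups, so the p-values describe the spread between chosen mice. The CLE and LU groups were both compared with the same 3 HFD mice.

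Levels are given in FPKM, that is, fragments scaled by the length of the transcript and by the mapped fragments of the library, summed over the transcripts of each gene, and can therefore be compared between genes. Differences are given on the scale of log2(FPKM + 1), with the standard error (SE) or the 95% confidence interval of the fit, and understate the change of genes with low FPKM. A gene was called a differentially expressed gene (DEG) at an adjusted p under 0.05 (limma over all 12760 genes, Benjamini-Hochberg adjustment) and a fold change over 1.5. "Rose" and "fell" are used only for DEGs. Read counts are not part of the table, and sequencing depth is therefore unknown. An exact permutation test of 3 against 3 mice cannot give a two-sided p under 0.1, and every pair of groups described as not overlapping had that value. Between mice of the same group, Pearson's r across the tested genes was 0.978 to 0.992. Libraries of 4 mice, none of them HFD, carry the letter R in their labels, whose meaning is not given: 2 from the ND group (mice 3 and 4), 1 from CLE (mouse 4) and 1 from LU (mouse 2). The column names of these 4 libraries also end in the same digits, which no other column used here carries and which are not explained. ND mouse 4 was taken from a column named MD4, matched through the number 4, the R and the listing of that column with the ND ones in another column's header.

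The tissue carried the defining markers of fat. The summed level of 8 adipocyte markers was 12991 to 15764 FPKM in ND mice, 4536 to 5460 FPKM in HFD mice, 8742 to 11333 FPKM in CLE mice and 7870 to 9631 FPKM in LU mice, with none of the 8 at or near 0. The summed level of 8 macrophage markers was 315 to 492 FPKM in ND, 2308 to 2669 FPKM in HFD, 572 to 864 FPKM in CLE and 913 to 1042 FPKM in LU. Summed levels stayed below 7 FPKM in every library for 7 epididymis markers and for 6 lymphocyte markers, and reached 15.8 FPKM for skeletal muscle markers in 1 CLE mouse. Over all libraries they were 163 to 385 FPKM for 5 endothelial markers, 446 to 798 FPKM for 5 adipose progenitor markers, 2.29 to 53.3 FPKM for 5 mesothelial markers and less than the upper of these values in every library for 5 liver markers. Because whole tissue was extracted, fewer fat cells and less RNA per fat cell cannot be told apart in any of the results that follow.

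Several members belonged to the most abundant messenger RNAs of the tissue. By mean FPKM over the 12 libraries, *Pnpla2* ranked 24 of 12760 genes with 1176 FPKM, *Lipe* ranked 47 with 687 FPKM, *Prkar2b* ranked 136 with 353 FPKM and *Mgll* ranked 138 with 353 FPKM. *G0s2* ranked 166 with 316 FPKM and *Pde3b* 553 with 121 FPKM. *Abhd5* and *Pnpla3* were the least abundant, at rank 1088 with 71.6 FPKM and rank 1539 with 51.6 FPKM. The activator *Abhd5* was thus far less abundant than the lipase it serves, with 12.2 to 20.6 times less FPKM in the same mouse in ND and 12.2 to 14.3 times less in HFD.

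The genes lie apart in the genome, including the 3 on chromosome 7. In GENCODE M21 on GRCm38, *Pnpla2* (ENSMUSG00000025509) spans chr7:141455198-141460743 on the plus strand, *Lipe* (ENSMUSG00000003123) spans chr7:25379527-25398710 on the minus strand, and *Pde3b* (ENSMUSG00000030671) spans chr7:114415281-114539251 on the plus strand. *Mgll* (ENSMUSG00000033174) lies at chr6:88724412-88828360 (plus), *Abhd5* (ENSMUSG00000032540) at chr9:122351608-122381524 (plus) and *Pnpla3* (ENSMUSG00000041653) at chr15:84167837-84187236 (plus). *G0s2* (ENSMUSG00000009633) lies at chr1:193272161-193273217 (minus) and *Prkar2b* (ENSMUSG00000002997) at chr12:31958476-32061296 (minus). *Pnpla3* ends 5004 bases before its neighbour *Samm50*, which encodes a protein of the mitochondrial outer membrane, and the deposited gene name column gives the symbol *Pnpla3* to 5 rows of a *Samm50* transcript. Those 5 rows were left out here, and 7 rows were summed for *Pnpla3*.

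Windows of 250 bases upstream of the start were read from RefSeq (GRCm38.p6) for *Pnpla2*, *Lipe* and *G0s2*, since these members fell with the HFD and rose with CLE together. Of the 8 members, 7 had a window, and *Pde3b* had none. *Lipe* has 2 starts in RefSeq, and both windows are shown because the deposited rows separate the transcripts that use them. Sequences run 5′ to 3′ on the strand of the gene and end at the base before the start. Capitals mark matches, on either strand, to any of 5 motifs. They were the E-box in the form CACGTG, which reads the same on both strands, the GC box GGGCGG, the TATA box TATAAA, the nuclear factor Y motif CCAAT, and the core of nuclear receptor sites AGGTCA.
*Pnpla2*, chr7:141454938-141455187, plus strand: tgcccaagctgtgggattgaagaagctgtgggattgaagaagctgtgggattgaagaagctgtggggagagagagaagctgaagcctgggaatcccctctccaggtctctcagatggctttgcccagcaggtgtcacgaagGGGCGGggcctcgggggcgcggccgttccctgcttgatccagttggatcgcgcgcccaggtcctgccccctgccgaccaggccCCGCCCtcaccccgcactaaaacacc
*Lipe*, downstream start, chr7:25390113-25390362, minus strand: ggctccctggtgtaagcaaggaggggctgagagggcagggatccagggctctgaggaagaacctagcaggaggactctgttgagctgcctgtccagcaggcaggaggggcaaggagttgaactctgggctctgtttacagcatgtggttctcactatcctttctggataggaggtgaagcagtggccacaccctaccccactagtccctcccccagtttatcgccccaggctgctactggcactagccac
*Lipe*, upstream start, chr7:25395988-25396237, minus strand: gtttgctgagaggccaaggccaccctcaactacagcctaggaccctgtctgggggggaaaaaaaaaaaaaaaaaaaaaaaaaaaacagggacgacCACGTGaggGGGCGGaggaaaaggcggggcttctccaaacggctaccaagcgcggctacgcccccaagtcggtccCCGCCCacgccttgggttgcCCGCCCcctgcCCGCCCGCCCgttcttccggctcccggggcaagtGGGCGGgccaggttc
*G0s2*, chr1:193273189-193273438, minus strand: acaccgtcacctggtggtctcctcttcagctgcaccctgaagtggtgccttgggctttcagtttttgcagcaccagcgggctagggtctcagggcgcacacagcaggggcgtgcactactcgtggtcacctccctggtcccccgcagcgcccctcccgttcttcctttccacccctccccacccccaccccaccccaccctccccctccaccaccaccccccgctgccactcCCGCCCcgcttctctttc

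The GC box was present in 3 of the 4 windows. Members not called with the HFD or CLE held it too: *Pnpla3* (2 matches), *Abhd5* (1), a *Mgll* window (1) and a *Prkar2b* window (4). Another *Mgll* window and another *Prkar2b* window lacked it. Its presence thus did not set the members shown apart from the others. *Pnpla2* held GGGCGG 2 times, at 109 and 26 bases upstream of the start, and *G0s2* held it once, at 18 bases. The upstream *Lipe* window held it 6 times, of which the matches at 49 and 45 bases overlapped each other, and it also held CACGTG at 155 bases. The downstream *Lipe* window held none of the 5 motifs. Among all 32851 RefSeq windows of this length, 32.7% held the GC box, 6.0% the E-box, 12.4% the TATA box, 33.8% the nuclear factor Y motif and 14.0% the nuclear receptor core, and the last 3 of these were present in none of the 4 windows. GC content was 63.2% for *Pnpla2*, 58.8% for the downstream and 62.8% for the upstream *Lipe* window, and 67.2% for *G0s2*. A match is a description of the letters and not evidence of binding.

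The first question was how the HFD changed these genes relative to the ND. Of the 8 members, 4 fell (*Pnpla2*, *Lipe*, *G0s2* and *Pde3b*) and none rose, while all 8 had a lower mean in HFD mice than in ND mice. Over all genes tested, 10.8% fell and 14.9% rose in this comparison. The groups did not overlap for 6 of the 8 members, each lower in HFD, against 29.3% of all genes tested. The median log2 difference was −0.58 over the members and −0.02 over all genes tested.

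The second question was whether CLE or LU in the HFD changed them relative to the HFD alone. With CLE, 4 members rose (the same *Pnpla2*, *Lipe*, *G0s2* and *Pde3b*) and none fell, against 6.33% of all genes that rose and 10.1% that fell. CLE and HFD mice did not overlap for 7 of the 8 members, each higher in CLE, against 24.4% of all genes. With LU, only *Pde3b* met both criteria, against 4.8% of all genes that rose and 7.65% that fell. LU and HFD mice did not overlap for 6 of the 8 members, each higher in LU, against 25.6% of all genes. The median log2 difference of the members was 0.57 for CLE and 0.38 for LU, beside 0.01 and 0.03 over all genes tested. *Pnpla2*, *G0s2* and *Pde3b* were also in a pathway panel that the study drew from these same libraries, so their direction here is not independent of it.

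**Figure D1:**
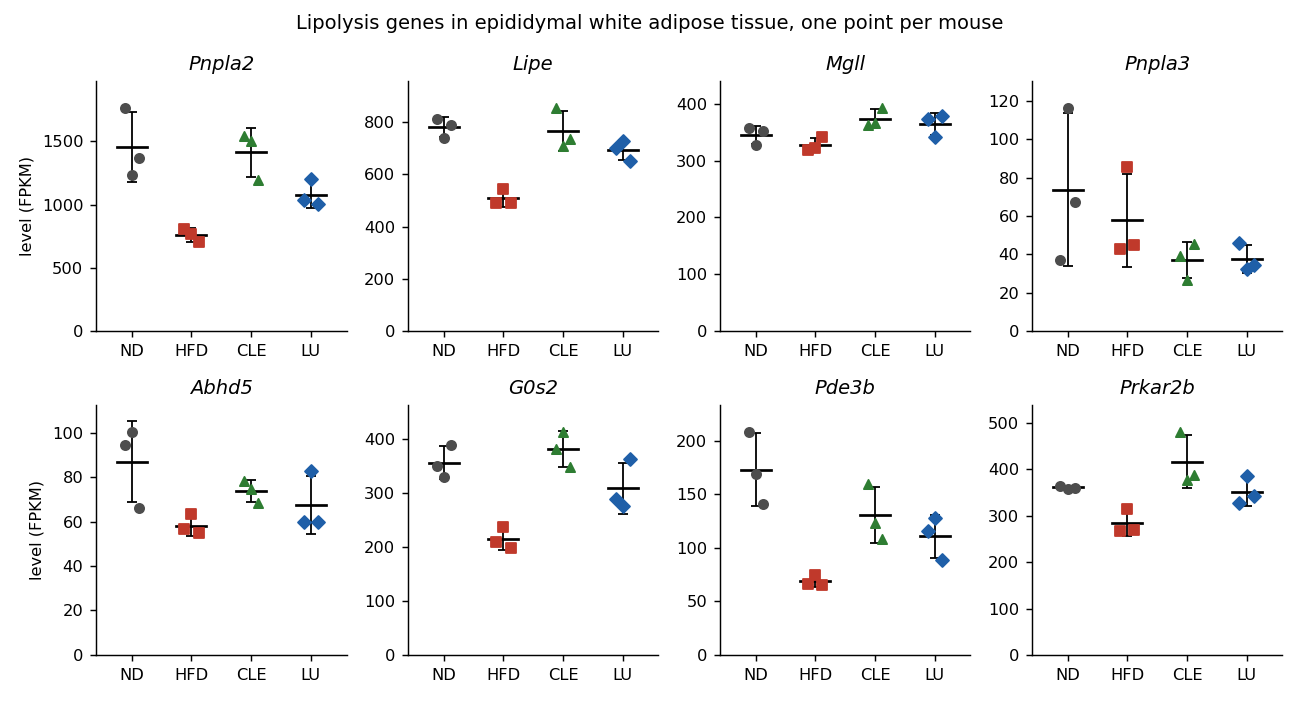
Level of each lipolysis gene in FPKM (vertical axes, from 0) in every mouse of the ND, HFD, CLE and LU groups, with the mean (horizontal line) and SD of 3 mice. For *Pnpla2*, *Lipe*, *G0s2* and *Pde3b* the 3 HFD mice lie below all mice of the other groups, while *Mgll* stays between 318 and 393 FPKM in all 12 mice and *Pnpla3* is spread most within ND.

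Among the lipases, *Pnpla2*, the enzyme that takes the first fatty acid from triglyceride, changed most with the HFD and with CLE. Its level was 1763, 1230.0 and 1364 FPKM in ND mice 2, 3 and 4 (mean 1452 ± 277, SD, n = 3), and 809, 771 and 704 FPKM in HFD mice 12, 15 and 18 (761 ± 53.4). It was 1539.6, 1504 and 1191 FPKM in CLE mice 2, 4 and 11 (1412 ± 192), and 1034, 1198 and 1003 FPKM in LU mice 2, 3 and 8 (1078 ± 104). Every HFD mouse was below every other mouse, the CLE mice lay within the range of the ND mice apart from mouse 11, and all 3 LU mice lay below the lowest ND mouse. *Pnpla2* fell 1.89-fold with the HFD, a log2 difference of −0.92 ± 0.14 (SE), with an adjusted p of 0.000291 in limma. It rose 1.85-fold with CLE relative to HFD (0.88 ± 0.14, adjusted p = 0.000766 in limma). With LU the difference of 0.50 ± 0.14 had an adjusted p of 0.0238 in limma but its fold change of 1.41 was under the criterion.

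*Lipe*, the hormone-sensitive lipase that hydrolyses diglyceride, had the smaller spread within groups. ND mice had 813, 739 and 788 FPKM (780 ± 37.6, SD, n = 3), and HFD mice had 491, 545 and 489 FPKM (508 ± 31.8). CLE mice had 854, 709 and 734 FPKM (766 ± 77.6), and LU mice had 700.5, 728 and 651 FPKM (693 ± 38.6). All HFD mice were below all others, the CLE mice overlapped the ND mice, and the LU mice lay just under them. The fall with the HFD was 1.53-fold (−0.62 ± 0.09 SE, adjusted p = 0.000216 in limma). The rise with CLE was 1.502-fold (0.59 ± 0.09, adjusted p = 0.000634 in limma), so *Lipe* stood just inside the fold criterion, and it was outside it without CLE mouse 2 (a log2 difference of 0.51), HFD mouse 12 (0.56) or HFD mouse 18 (0.56). Under quantile scaling neither the fall (−0.56) nor the rise (0.56) met the criterion, and with array weights the rise (0.57) did not. With LU the difference was 0.45 ± 0.09 (adjusted p = 0.00488 in limma), 1.36-fold and thus outside the criterion. It met the criterion with LU in the most abundant row (0.72, adjusted p = 0.00165 in limma) and without assembled rows (0.67, adjusted p = 0.00162), choices under which *Pde3b* was not called with LU.

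*Mgll*, which cleaves monoglyceride, differed least between groups. It was at 357, 328 and 352 FPKM in ND, 318, 322 and 341 FPKM in HFD, 362, 367 and 393 FPKM in CLE, and 373, 341 and 378 FPKM in LU. The HFD mice overlapped the ND mice and lay below the CLE and LU mice by a narrow margin. The log2 difference was −0.08 for HFD against ND, with a 95% interval of −0.25 to 0.09, so a fall of more than 1.5-fold lies outside the interval. It was 0.19 (0.02 to 0.36) for CLE against HFD and 0.15 (−0.02 to 0.32) for LU against HFD, and none passed the adjusted threshold. The level of *Lipe* divided by that of *Mgll* in the same mouse was 2.24 to 2.28 in ND, 1.43 to 1.69 in HFD, 1.87 to 2.36 in CLE and 1.72 to 2.13 in LU, a ratio chosen after the values were seen and not tested.

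*Pnpla3* encodes adiponutrin, a relative of *Pnpla2* that responds to feeding, and its mice were too scattered for a call. It was at 37.3, 116 and 67.4 FPKM in ND, 43.0, 85.7 and 44.8 FPKM in HFD, 39.1, 26.8 and 45.3 FPKM in CLE, and 46.2, 32.2 and 34.7 FPKM in LU. The groups overlapped in every comparison, and the high values belonged to ND mouse 3 and HFD mouse 15. The log2 difference was −0.27 (−1.09 to 0.55) for HFD against ND, −0.59 (−1.41 to 0.23) for CLE against HFD and −0.55 (−1.37 to 0.27) for LU against HFD. The sign of the first depended on ND mouse 3, without which it was 0.13. It also depended on which rows were summed: the difference was −1.35 (adjusted p = 0.00591 in limma) in the most abundant row alone, an assembled one, and 0.35 without assembled rows, which held 68.4% of the gene's FPKM.

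The regulators of the first lipase moved unequally. *G0s2*, whose product inhibits adipose triglyceride lipase, was at 351, 330.4 and 390.2 FPKM in ND (357 ± 30.4, SD, n = 3) and at 209, 238 and 198 FPKM in HFD (215 ± 20.3). It was at 383, 415 and 349 FPKM in CLE (382 ± 32.8) and at 289.6, 276 and 363 FPKM in LU (309 ± 46.8). All HFD mice were below all others, and the other 3 groups overlapped one another. *G0s2* fell 1.66-fold with the HFD (−0.73 ± 0.12 SE, adjusted p = 0.000444 in limma) and rose 1.77-fold with CLE (0.83 ± 0.12, adjusted p = 0.000397 in limma). With LU the difference was 0.52 ± 0.12 (adjusted p = 0.00921 in limma) and 1.43-fold, outside the fold criterion, which it met without HFD mouse 15 (0.59) or LU mouse 3 (0.59). The level of *Pnpla2* divided by that of *G0s2* had means of 4.08 ± 0.83 in ND, 3.55 ± 0.31 in HFD, 3.69 ± 0.31 in CLE and 3.56 ± 0.79 in LU (SD, n = 3), with overlapping ranges.

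*Abhd5*, which encodes the activator CGI-58, was at 94.2, 100.5 and 66.2 FPKM in ND, 56.7, 63.3 and 54.6 FPKM in HFD, 78.2, 74.7 and 68.2 FPKM in CLE, and 59.8, 82.7 and 59.7 FPKM in LU. HFD mice were below all ND and all CLE mice, by a narrow margin in ND mouse 4, and overlapped the LU mice. The difference of HFD from ND was −0.55 ± 0.16 (SE, adjusted p = 0.015 in limma), 1.47-fold and just outside the fold criterion. It met the criterion without ND mouse 4 (−0.73) or HFD mouse 15 (−0.61), and with the letter R as a covariate (−0.64). Without the libraries labelled R, ND mouse 2 alone was left in ND, and the difference was −0.69. No HFD library carries that letter. That of CLE from HFD was 0.34 (95% interval −0.02 to 0.69, adjusted p = 0.135 in limma) and that of LU from HFD was 0.19 (−0.16 to 0.55). The level of *Pnpla2* divided by that of *Abhd5* was 17.5 to 20.1 in CLE mice and 12.2 to 14.3 in HFD mice, without overlap, and 12.2 to 20.6 in ND mice, a ratio chosen after the values were seen and not tested.

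On the cyclic AMP side, *Pde3b*, which encodes the phosphodiesterase through which insulin restrains lipolysis, changed most of all members. It was at 208, 169 and 140.5 FPKM in ND (173 ± 34.1, SD, n = 3), and at 65.8, 74.4 and 65.5 FPKM in HFD (68.6 ± 5.09). It was at 159, 123 and 109 FPKM in CLE (130.4 ± 26.1), and at 116, 128 and 88.9 FPKM in LU (111 ± 19.8). All HFD mice were below all others, and all LU mice were below all ND mice. *Pde3b* fell 2.47-fold with the HFD (−1.30 ± 0.18 SE, adjusted p = 0.000114 in limma), rose 1.87-fold with CLE (0.90 ± 0.18, adjusted p = 0.00261) and rose 1.59-fold with LU (0.67 ± 0.18, adjusted p = 0.0173). Its call with LU was lost without HFD mouse 12, HFD mouse 18, LU mouse 2 or LU mouse 3, and without the 4 libraries labelled R. Assembled rows held 54.3% of its FPKM, and its calls with the HFD and with LU depended on them. The call with CLE was kept without them. Without assembled rows the difference was −0.71 with the HFD (adjusted p = 0.0618 in limma) and 0.47 with LU (adjusted p = 0.265), neither of them a call. In the most abundant row alone it was −0.63 with the HFD (adjusted p = 0.103 in limma), 0.84 with CLE (adjusted p = 0.0543) and 0.39 with LU (adjusted p = 0.377), and none was a call.

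*Prkar2b*, which encodes a regulatory subunit of protein kinase A that is abundant in fat, differed less than *Pde3b*. It was at 365, 358 and 360.2 FPKM in ND, 266, 315 and 269.7 FPKM in HFD, 482, 378 and 389 FPKM in CLE, and 327, 385 and 342 FPKM in LU. The HFD mice were below all other mice, and the CLE mice were above all ND mice. Its difference of HFD from ND was −0.35 ± 0.11 (SE, adjusted p = 0.0195 in limma) and that of CLE from HFD was 0.55 ± 0.11 (adjusted p = 0.00287), 1.28-fold and 1.46-fold, both outside the fold criterion. The second met it without HFD mouse 15 (0.62), CLE mouse 4 (0.61), CLE mouse 11 (0.59) or the libraries labelled R (0.61), and with the letter R as a covariate (0.59). That of LU from HFD was 0.31 ± 0.11 (adjusted p = 0.0568). The level of *Prkar2b* divided by that of *Pde3b* was 1.75 to 2.56 in ND, 4.05 to 4.23 in HFD, 3.02 to 3.58 in CLE and 2.82 to 3.85 in LU. The HFD mice thus stood above all others in this ratio, and the CLE and LU mice above all ND mice; it was chosen after the values were seen and not tested.

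**Figure D2:**
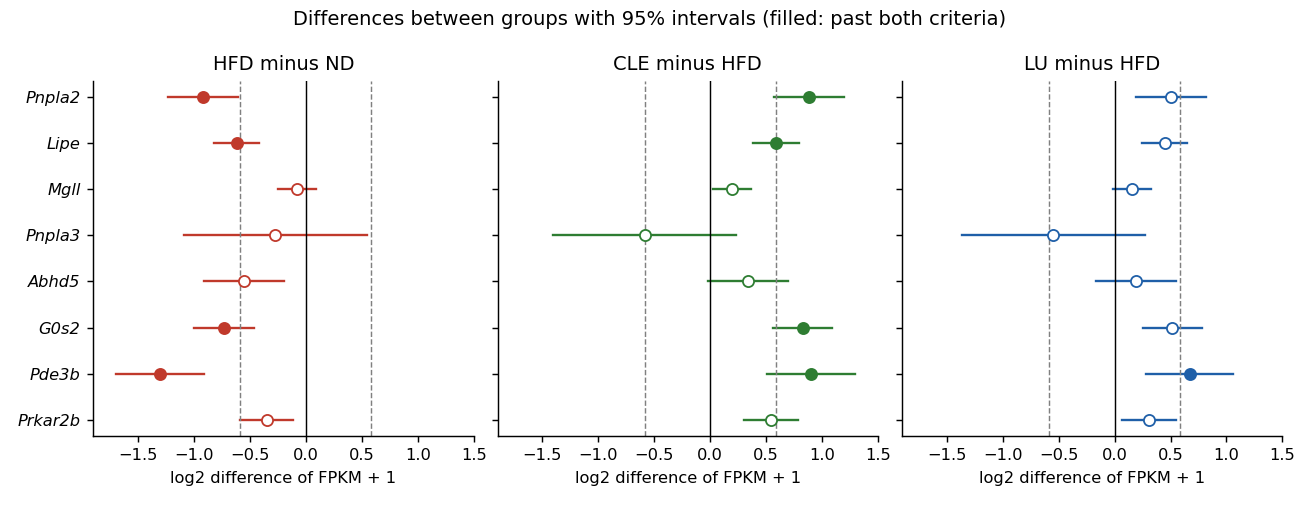
Log2 difference of FPKM + 1 (horizontal axes) of each lipolysis gene for HFD minus ND, CLE minus HFD and LU minus HFD, with the 95% interval of the limma fit (n = 3 mice per group). Dashed lines mark a 1.5-fold change and filled points are DEGs: 4 to the left with the HFD, the same 4 to the right with CLE, and *Pde3b* with LU.

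CLE and LU were also compared with each other, at doses that differ greatly and were not matched. Of the members, 0 were DEGs in limma, against 0.00784% of all genes tested (1 of 12760), and 2 members had an unadjusted p under 0.05. The mean was higher in CLE for 7 of the 8 members, but CLE and LU mice overlapped for all 8. *Pnpla2* was 0.38 higher in CLE on the log2 scale (95% interval 0.07 to 0.70, adjusted p = 0.89 in limma), and *G0s2* was 0.31 higher (0.05 to 0.58, adjusted p = 0.89). The interval was −0.06 to 0.34 for *Lipe* and −0.16 to 0.62 for *Pde3b*, so moderately higher levels in CLE lie inside these intervals. That 4 members met both criteria with CLE and 1 with LU is therefore not a tested difference between the supplements.

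Against the ND, no member was a DEG in CLE mice in limma, where 2.07% of all genes were higher and 0.854% lower, and 2 members had an unadjusted p under 0.05. The intervals of the log2 difference from ND were −0.35 to 0.28 for *Pnpla2*, −0.23 to 0.17 for *Lipe*, −0.17 to 0.36 for *G0s2*, −0.79 to −0.01 for *Pde3b* and −1.68 to −0.04 for *Pnpla3*. The last 2 are those with an unadjusted p under 0.05, their adjusted p was 0.204 and 0.196 in limma, and both genes overlapped between CLE and ND mice. In LU mice, *Pde3b* was lower than in ND mice (−0.63 ± 0.18 SE, adjusted p = 0.0384 in limma, 1.55-fold), the only member called, against 1.62% of all genes lower and 4.97% higher. *Pnpla2* was 0.42 lower in LU than in ND mice, with an adjusted p of 0.0805. The call of *Pde3b* was lost under several alternatives, among them leaving out any of 8 libraries singly.

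By group mean, the order was ND, CLE, LU, HFD from high to low for *Pnpla2*, *Lipe*, *Abhd5* and *Pde3b*, and CLE, ND, LU, HFD for *G0s2* and *Prkar2b*. Among neighbours in these orders, ND and CLE mice overlapped for each of the first 4 genes and for *G0s2*, while for *Prkar2b* all CLE mice were above all ND mice. CLE and LU mice overlapped for each of the first 4 genes, and ND and LU mice for *G0s2* and *Prkar2b*. LU and HFD mice overlapped only for *Abhd5*. For *Mgll* the order was CLE, LU, ND, HFD with 1.14 between the highest and the lowest mean as a ratio. For *Pnpla3*, the order was ND, HFD, LU, CLE.

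The fall of these genes was set beside that of fat cell markers. With the HFD, 7 of 8 adipocyte markers fell and none rose, with log2 differences from −3.52 for *Cfd* (adipsin) to −0.44 for *Pparg*, the adipocyte transcription factor, which was not called. All 8 macrophage markers rose, by 1.37 (*Mrc1*) to 4.76 (*Itgax*) on the log2 scale. *Adipoq* (adiponectin) fell by 0.84 and *Plin1* (perilipin 1, the droplet coat protein that binds CGI-58) fell by 0.83. The falls of *Pnpla2* (0.92), *G0s2* (0.73) and *Lipe* (0.62) on the same scale were near those of *Adipoq* and *Plin1*. Beside *Cfd*, the markers *Retn* (2.36), *Acvr1c* (1.84) and *Plin4* (1.23) fell more than these members, and *Cidec* fell by 0.69. The median of the 8 adipocyte markers was −1.04, and *Pde3b*, at −1.30, was the member below it. The level of *Pnpla2* divided by that of *Adipoq* in the same mouse was 0.54 to 0.94 in ND, 0.63 to 0.66 in HFD, 0.70 to 0.77 in CLE and 0.52 to 0.64 in LU. The ranges of this ratio in ND and HFD overlapped, while all CLE mice lay above all HFD and all LU mice. It was not tested.

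With CLE, 7 of the 8 adipocyte markers rose and all 8 macrophage markers fell, and with LU 4 adipocyte markers rose and all 8 macrophage markers fell. Markers of other cells moved too. With the HFD, 4 of 5 mesothelial and 1 of 5 endothelial markers fell. Endothelial markers rose with the supplements, 3 of 5 with CLE and 4 of 5 with LU. Of 5 adipose progenitor markers, only *Col1a1*, a collagen, was called with the HFD, with a rise of 2.12 on the log2 scale. The lowest of these 5 was *Dcn*, at −0.31. The mean log2 difference of the 8 adipocyte markers with the HFD was −1.47, lower than their median of −1.04, and *Cfd* was lowest at −3.52. Scaling by the marker median was not run. After each library was scaled by the mean log2 level of its adipocyte markers, every member was higher in HFD than in ND (0.15 for *Pde3b* to 1.39 for *Mgll*), while the median of all genes tested moved to 1.28. Against that shifted median, *Mgll* lay above and the other members below it, with *Pnpla2* at 0.55, *G0s2* at 0.73 and *Lipe* at 0.85. The same scaling gave differences of CLE from HFD below 0 for all 8 members, with the median of all genes at −0.95. The part of cell composition in the members' changes was not tested.

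**Figure D3:**
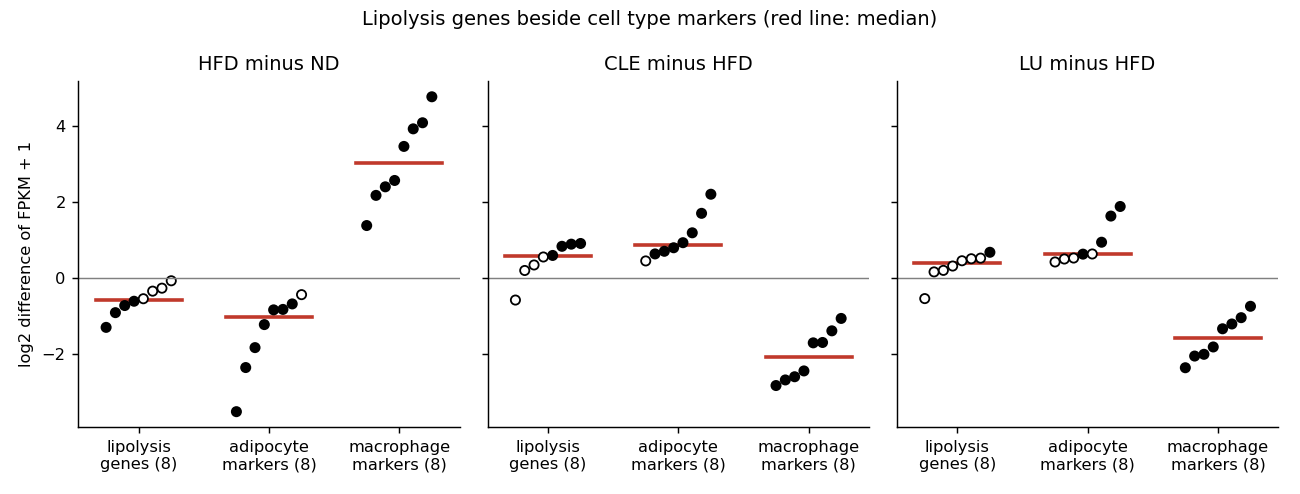
Log2 difference of FPKM + 1 (vertical axis) of the 8 lipolysis genes, 8 adipocyte markers and 8 macrophage markers for HFD minus ND, CLE minus HFD and LU minus HFD, with each gene a point, DEGs filled and the median as a red line. Lipolysis genes and adipocyte markers lie on the same side of 0 apart from *Pnpla3*, the markers reaching −3.52 with the HFD and the lipolysis genes −1.30, and macrophage markers lie on the other side.

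The lower level of *Lipe* in HFD mice lay mostly in 1 transcript row. The annotated transcript ENSMUST00000054301, which begins at the downstream start, held 65.6% of the gene's FPKM, while ENSMUST00000003207, from the upstream start 5881 bases away, held 5.99%. The downstream row was at 569 ± 7.94 FPKM in ND (SD, n = 3), 282 ± 26.8 FPKM in HFD, 487 ± 43.9 FPKM in CLE and 465 ± 50.1 FPKM in LU. The upstream row was at 38.5, 36.2, 46.3 and 43.7 FPKM in the same order of groups. An assembled row whose start lies 164 bases upstream of the downstream start was at 115 ± 32.9, 150.3 ± 6.37, 178 ± 29.9 and 131 ± 30.4 FPKM, with its highest mean in CLE and not in ND. These shares are estimates that divide fragments among overlapping models, and they were not tested.

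**Figure D4:**
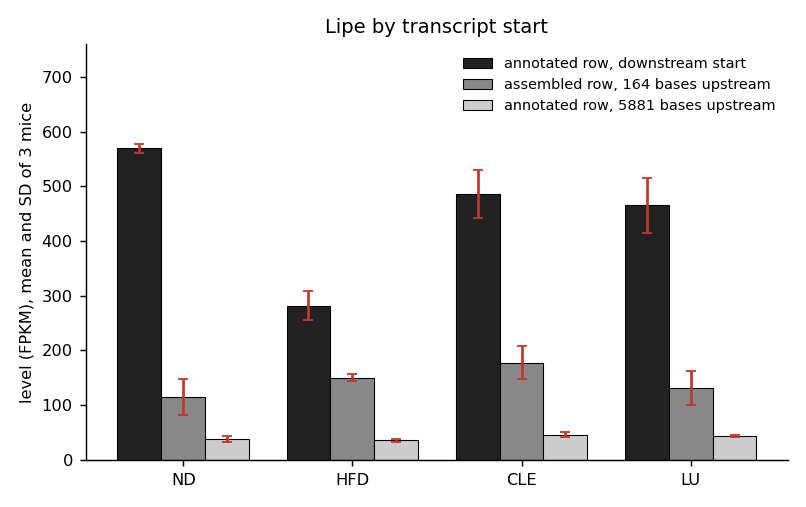
Level in FPKM (vertical axis, from 0) of the 3 most abundant *Lipe* rows in the ND, HFD, CLE and LU groups, as mean and SD of 3 mice. The annotated row from the downstream start is at 569 FPKM in ND and 282 FPKM in HFD, while the row from the upstream start stays between 36.2 and 46.3 FPKM.

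For some members a large share of the estimate lay in transcripts that are not annotated as protein coding. In GENCODE, transcripts of the nonsense-mediated decay class held 43.7% of the FPKM of *Pnpla2* and 52.2% of that of *Abhd5*, and protein coding ones held 13.3% and 44.5%. For *Pnpla2* a further 35.0% lay in assembled rows. Transcripts annotated as protein coding held 92.1% of the FPKM of *Mgll* and practically all of that of *Prkar2b*. Like those of the *Lipe* rows, these shares are estimates that divide fragments among overlapping models, and they were not tested. Gene sums, used for all tests, count all these rows alike.

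The likeness of 6 members to other genes was described by the root mean square difference of centred log2(FPKM + 1) over the 12 libraries, without a test. *Pnpla2* was most like *Acad11* (0.0915), *Prkce* (0.0925) and *Pccb* (0.0959), of which *Acad11* encodes an acyl-CoA dehydrogenase and *Pccb* a subunit of propionyl-CoA carboxylase. *Lipe* was most like *Acat1*, *Derl1* and *Pdzd2*, and *Pde3b* was most like *Sephs2*, *Csad* and *Adipor2*, an adiponectin receptor. *Pnpla3* was most like *Acss2*, *Fasn* and *Acly*, 3 genes of fatty acid synthesis, at 0.257 to 0.280. *Mgll* was most like *Setd5*, *Gcn1l1* and *Brat1*, and *Prkar2b* was most like *Pold2*, *Derl1* and *1600014C10Rik*. The measure is not scaled by the spread of a gene, so genes that vary little, such as *Mgll*, lie near other such genes. Among the members themselves, *Lipe* and *Prkar2b* were the closest pair, at 0.117, with *Lipe* at rank 14 of likeness to *Prkar2b*.

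The other genes of the pathway were taken from a list of 82 genes in 9 roles, of which 72 were tested. With the HFD, 28 of the 72 fell and 14 rose, and 30 were not called, beside 10.8% and 14.9% of all genes tested. With CLE relative to HFD, 18 rose and 7 fell, beside 6.33% and 10.1% of all genes, and with LU, 14 rose and 6 fell, beside 4.8% and 7.65%. The median log2 difference of the 72 was −0.30 with the HFD, 0.18 with CLE and 0.15 with LU.

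At the cell surface, 6 of 7 lipolytic receptors fell with the HFD and none rose. *Adrb3*, the beta-3 adrenergic receptor through which catecholamines act on mouse fat, was the most abundant of them and changed most. It was at 593, 749 and 581 FPKM in ND, 82.4, 127 and 82.3 FPKM in HFD, 438, 241 and 344 FPKM in CLE, and 295, 459 and 208 FPKM in LU. It fell 6.63-fold with the HFD (log2 −2.73, adjusted p = 1.77e-05 in limma) and rose 3.45-fold with CLE (1.79, adjusted p = 0.000753). With LU it rose 3.17-fold (1.67, adjusted p = 0.00186). The receptor thus changed more than any of the 8 members, and the CLE and LU mice lay below all ND mice. Of 6 antilipolytic receptors, 4 fell and 1 rose with the HFD. *Hcar2*, a receptor for ketone bodies and niacin, fell 3.01-fold with the HFD, and *Npr3*, the natriuretic peptide clearance receptor, was the most abundant and was not called.

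Between receptor and kinase the changes were mixed. Of 10 genes for G proteins and adenylyl cyclases, 3 rose and 1 fell with the HFD. *Adcy7*, a cyclase abundant in leukocytes, rose 7.22-fold with the HFD and fell 3.97-fold with CLE, in the direction of the macrophage markers. *Gnas*, the stimulatory G protein subunit, was the most abundant and differed by −0.32 on the log2 scale, outside the fold criterion. Of 6 genes for protein kinases A and G, 0 were DEGs in limma with the HFD, with CLE or with LU, while 2, 2 and 3 of them had an unadjusted p under 0.05. *Prkar2a*, the kinase subunit most related to *Prkar2b*, was 0.32 higher with the HFD on the log2 scale, outside the fold criterion, and *Prkar1a*, the most abundant, differed by −0.16. Of 8 phosphodiesterases other than *Pde3b*, 1 rose and 1 fell with the HFD, and *Pde7a*, the most abundant, rose 1.89-fold.

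Around the lipid droplet, 5 of 8 coat genes fell and 2 rose with the HFD. *Cidec*, which promotes droplet growth, was the most abundant and fell 1.61-fold. *Plin2*, the droplet coat of many cell types including macrophages, rose from 207 to 322 FPKM over the ND mice to 808 to 886 FPKM over the HFD mice, 3.25-fold, and was at 313 to 471 FPKM in CLE. In the insulin branch, 6 of 11 fell and 2 rose. *Akt2*, the kinase that acts upstream of phosphodiesterase 3B, fell 1.87-fold and rose 1.52-fold with CLE, while *Pik3cd*, a leukocyte PI3-kinase subunit, rose 3.55-fold with the HFD.

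Of 9 other lipid hydrolases, 3 fell, 2 rose and 4 were not called with the HFD. *Ces1d*, a carboxylesterase with triglyceride hydrolase activity in fat, was at 1553 to 1891 FPKM in ND, 362 to 515 FPKM in HFD and 1039 to 1871 FPKM in CLE. It fell 3.99-fold with the HFD and rose 3.25-fold with CLE. *Lipa*, the lysosomal acid lipase, was at 28.4 to 30.6 FPKM in ND, 223 to 268 FPKM in HFD, 42.1 to 82.0 FPKM in CLE and 58.6 to 93.8 FPKM in LU. It rose 8.25-fold with the HFD and fell 4.43-fold with CLE and 3.49-fold with LU, beside the rise and fall of the macrophage markers. Among genes that handle the products, 2 of 7 fell and 3 rose with the HFD. *Pck1*, whose enzyme serves the supply of glycerol phosphate for re-esterification, fell 5.14-fold with the HFD and rose 3.84-fold with CLE. *Fabp4*, the abundant fatty acid binding protein of fat cells, fell 1.8-fold and rose 1.502-fold with CLE.

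**Figure D5:**
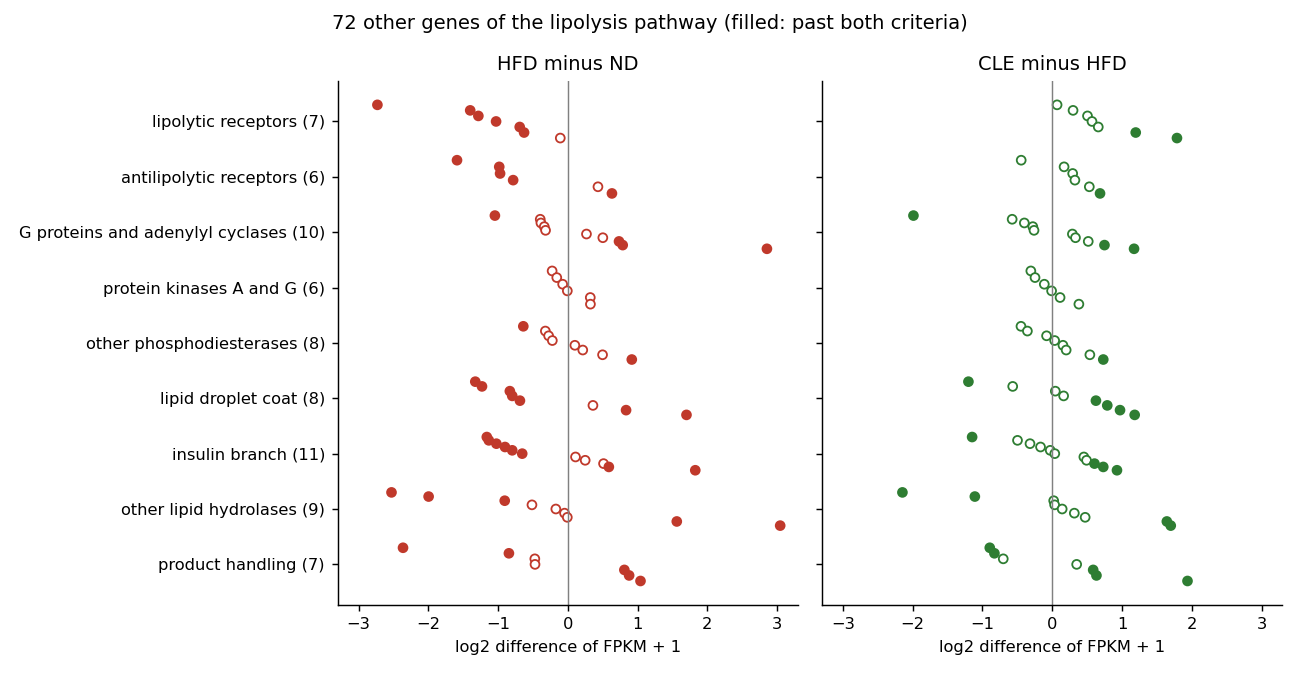
Log2 difference of FPKM + 1 (horizontal axes) of 72 other pathway genes by role (number of genes in brackets) for HFD minus ND and CLE minus HFD, DEGs filled. All 7 lipolytic receptors lie left of 0 with the HFD and right of 0 with CLE, with *Adrb3* the farthest at −2.73 and 1.79, while no protein kinase gene is filled.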

How the data were processed

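Messenger RNA of eWAT was measured in 12 libraries made with an Illumina TruSeq RNA kit. The submitters' processing notes name CASAVA 1.8.2, Bowtie2 2.2.3, TopHat2 2.0.12 and Cufflinks 2.2.1. The genome build is not given in the sources used here, but 87.6% of annotated transcripts had the same ends as in GRCm38. The authors deposited FPKM values for 152210 transcript rows. The table has 15 columns of FPKM, and 3 of them, which correspond to none of the samples, were left out, as were columns that mark transcripts the authors called between groups.

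Rows with an Ensembl transcript identifier, plain or with class code = or j (an assembled variant that shares a splice junction), were matched to GENCODE M21 (98.2% of them) and summed per gene. At most 40.2% of low values in a library lay within 0.1 of whole reads, so read counts were not recovered and the study's count test was not repeated.

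The filter was 1 FPKM or more in 3 or more libraries. limma 3.58.1 (R 4.3.3) was run on log2(FPKM + 1) with the 12 libraries in 1 fit, two-sided, with Benjamini-Hochberg adjustment per comparison, and was checked on simulated data. Python 3.11.15, pandas 2.3.3, numpy 2.4.6 and matplotlib 3.10.9 made tables and plots. The members, the gene lists and the alternatives were chosen with earlier results of these data known. Beside the 8 members, the genes named are, per pathway role, the most abundant one and the DEG with the largest change with the HFD, plus the 3 genes most alike to each member, which for *G0s2* and *Abhd5* are not reported here. Cell type markers, *Prkar2a*, and the genes of the closing section were named after their values were seen. Alternatives covered the pseudocount, filters, scaling, samples and covariates in the fit, moderation, the call rule, the rows summed and the libraries.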

Additional observations from a re-analysis of the deposited data

How the results depend on the processing

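Scaling by adipocyte markers moved the median log2 difference of all genes to 1.28 (HFD against ND), to −0.95 and −0.77 (CLE and LU against HFD), and to 0.34 and 0.52 (CLE and LU against ND), and differences under it are relative to those shifts. It called 11380 genes higher and 57 lower with the HFD (1896 and 1373 without it), 40 and 10426 with CLE, 36 and 9025 with LU, and in all 1564 and 4931 genes for CLE and LU against ND. Members called were then 6 higher in HFD than in ND, 3 lower in CLE and 3 lower in LU than in HFD, and 1 higher in each of CLE and LU than in ND. HFD against ND stood at 0.55 for *Pnpla2*, 0.85 for *Lipe*, 1.39 for *Mgll*, 1.17 for *Pnpla3*, 0.90 for *Abhd5*, 0.73 for *G0s2*, 0.15 for *Pde3b* and 1.11 for *Prkar2b*. In the same order of genes, CLE against HFD stood at −0.18, −0.48, −0.87, −1.64, −0.72, −0.24, −0.16 and −0.52, and LU against HFD at −0.39, −0.44, −0.73, −1.42, −0.68, −0.37, −0.21 and −0.58. CLE against LU stood at −0.041 for *Lipe*, −0.14 for *Mgll* and −0.036 for *Abhd5*, CLE against ND at 0.37 for *Pnpla2*, 0.37 for *Lipe* and 0.18 for *Abhd5*, and LU against ND at 0.16 for *Pnpla2*, 0.41 for *Lipe*, 0.22 for *Abhd5*, 0.36 for *G0s2* and 0.54 for *Prkar2b*. Under equal totals, median ratios and quantiles, no member changed sign in HFD against ND or in CLE or LU against HFD.

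*Pnpla3* stood at 0.35 for HFD against ND without assembled rows, at 0.39 (CLE) and 0.54 (LU) against HFD in the most abundant row, and at 0.042 for CLE against LU by the gene name column, a choice added after the data were seen. For CLE against ND, *G0s2* stood at −0.12 both in the most abundant row and without assembled rows, and *Pde3b* at 0.21 and 0.12. *Mgll* stood at −0.0085 for CLE against LU in the most abundant row. Leaving out the 4 libraries labelled R left mouse 2 alone in ND, so differences from ND then rest on that mouse. *Pnpla3* stood at 0.54 (HFD against ND), 0.33 (CLE against LU) and 0.17 (CLE against ND) without them. As a covariate, the letter R gave 0 genes under an adjusted p of 0.05 and 519 under an unadjusted one in limma. For CLE against ND, *Pnpla2* stood at 0.11 by quantiles and 0.052 with array weights, and *Lipe* at 0.0028 by quantiles.

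By adjusted p alone, 4 members were called for LU against HFD, and the genes called became 6439 (HFD against ND), 4293 and 3425 (CLE and LU against HFD), and 661 and 1633 (CLE and LU against ND), from 3269, 2103, 1588, 373 and 841. For LU against ND, 0 members in place of *Pde3b* were called without a filter, in a fit of only the groups compared, with array weights, in the most abundant row and without assembled rows. Mouse numbers recur among ND, CLE and LU, and deviations of same-numbered mice correlated at −0.0998 to 0.189. Whether such mice share more than a number was not tested. The replicate block by that number, possible only among these groups, gave 0 members and 2 genes for CLE against ND, 0 members and 409 genes for LU against ND, and *Pnpla2* at 0.059 for CLE against ND. Genes called for CLE against ND also numbered 213 in the most abundant row, 224 without assembled rows, 227 without a filter and 0 in a fit of only those groups, and CLE against LU had 0 or 1.

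Leaving out 1 library at a time gave 0 to 2 members for LU against HFD (0 without HFD mouse 12, HFD mouse 18 or LU mouse 2, and 2 without HFD mouse 15) and 0 to 1 for LU against ND (0 without ND mice 2 or 3, any HFD mouse, CLE mouse 4, or LU mice 2 or 8). Beside these, the genes called over the whole table ranged from 1350 to 1687 for LU against HFD and from 572 to 963 for LU against ND. *Pnpla3* ranged from −0.68 to 0.13 for HFD against ND and from −0.20 to 0.17 for CLE against LU, *Mgll* from −0.0086 to 0.065 for CLE against LU, *Pnpla2* from −0.14 to 0.11 and *Lipe* from −0.11 to 0.023 for CLE against ND, and *Prkar2b* from −0.11 to 0.0079 for LU against ND. Genes called for CLE against ND ranged from 124 (without ND mouse 2) to 498 (without CLE mouse 2), with 142 without CLE mouse 11 and 229 without CLE mouse 4. The cause of these changes was not tested, and depth, unknown here, limits what can be said of low levels.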

Other observations

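Relative to the ND, the other pathway genes were mostly not called in mice given CLE or LU. Of the 72 tested, 4 were higher and 2 lower in CLE than in ND mice, and 5 were higher and 8 lower in LU than in ND mice. Over all genes tested, 2.07% were higher and 0.854% lower in CLE, and 4.97% higher and 1.62% lower in LU. The CLE calls do not hold in a limma fit of only the CLE and ND groups, where 0 genes were called and 2289 had an unadjusted p under 0.05. With the replicate block, 2 genes of the whole table were called (373 in the fit of all groups), but that fit leaves little data to estimate the spread. Its count therefore does not decide whether the CLE calls hold. Higher in both were *Lipa*, the lysosomal acid lipase (log2 difference 0.90 in CLE and 1.24 in LU), *Adcy7* (0.86 and 1.19) and *Pik3cd* (0.68 and 0.79). Lower in both were *Cidea*, a lipid droplet protein of brown and beige fat (−1.16 and −1.22), and *Irs1*, an adaptor of the insulin receptor (−0.67 and −0.84). *Adrb3* was lower in LU (−1.06) than in ND mice and stood at −0.94 in CLE mice without passing the test. Macrophage markers were still higher than in ND mice, 7 of 8 in CLE and 8 of 8 in LU, and their part in these differences was not tested. These genes were named after their values were seen.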
